A study of Mus musculus with 11 samples.

Results

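The IRF2BP corepressor family was followed together with IRF2, the transcription factor it is named for, and its counterpart IRF1, in cultured mouse hippocampal neurons after a short period of low oxygen. The members were taken by symbol: Irf2bp1, Irf2bp2, Irf2bpl, Irf2 and Irf1, 5 of the 48709 gene IDs counted and 5 of the 16235 genes that passed a filter on low counts. The set was selected on the hypoxia-over-control fold changes of these same libraries, so the members' own levels and fold changes are given as a description with no test. The cells were primary hippocampal neurons grown for 10 days at 20% oxygen. Hypoxia libraries (n = 5) came from cells then placed at 1% oxygen for 4 h, and control libraries (n = 6) from cells of the same isolation left at 20%. No genotype, drug or allele distinguished the groups, and neither strain nor age is given here. Nothing says that the libraries of a group came from separate dishes or isolations, so any p-value refers to the scatter among these libraries, part of which may be technical. Polyadenylated RNA was sequenced, and total counts ran from 1.66e+07 to 3.19e+07 per library.

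IRF2BP1, IRF2BP2 and IRF2BPL are nuclear proteins that share a zinc finger near the amino end and a RING-type finger near the carboxyl end. IRF2BP1 and IRF2BP2 were found as partners of the repression domain of IRF2, an interferon regulatory factor that competes with the activator IRF1 for the same DNA element in interferon-responsive promoters. IRF2BP2 has also been described as a partner of NFAT and of the TEAD cofactor VGLL4 and as an ischemia-induced activator of Vegfa in muscle. IRF2BPL is a neuronal member whose truncating variants cause a neurodevelopmental disorder, and IRF1 itself is a fast target of interferon-gamma.

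The 3 IRF2BP genes are compact. In GENCODE M21 (GRCm38) Irf2bp1 (ENSMUSG00000044030, chr7:19004044-19006777, plus strand) and Irf2bpl (ENSMUSG00000034168, chr12:86880701-86884798, minus strand) each have 1 transcript with 1 exon, and Irf2bp2 (ENSMUSG00000051495, chr8:126588296-126593986, minus strand) has 1 transcript with 2 exons. Irf2 (ENSMUSG00000031627, chr8:46739732-46847458, plus strand) has 11 annotated transcripts and Irf1 (ENSMUSG00000018899, chr11:53770014-53778374, plus strand) has 10. The stretch of coding sequence that the 3 paralogues share best near their start codons covers the zinc finger region and is shown because it defines the family. Bases in capitals are the same in all 3 genes (108 of 150), and positions are counted from the A of the start codon.
Irf2bp2 (chr8:126593248-126593397, minus strand, coding bases 40 to 189): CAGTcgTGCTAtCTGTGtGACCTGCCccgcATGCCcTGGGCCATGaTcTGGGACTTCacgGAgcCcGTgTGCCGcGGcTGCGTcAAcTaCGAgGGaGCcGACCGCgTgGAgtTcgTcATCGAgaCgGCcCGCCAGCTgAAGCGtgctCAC
Irf2bp1 (chr7:19004464-19004613, plus strand, coding bases 28 to 177): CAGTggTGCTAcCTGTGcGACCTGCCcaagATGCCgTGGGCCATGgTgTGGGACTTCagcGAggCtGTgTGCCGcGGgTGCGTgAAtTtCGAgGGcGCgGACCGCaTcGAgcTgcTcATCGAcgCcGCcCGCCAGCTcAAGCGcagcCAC
Irf2bpl (chr12:86883715-86883864, minus strand, coding bases 34 to 183): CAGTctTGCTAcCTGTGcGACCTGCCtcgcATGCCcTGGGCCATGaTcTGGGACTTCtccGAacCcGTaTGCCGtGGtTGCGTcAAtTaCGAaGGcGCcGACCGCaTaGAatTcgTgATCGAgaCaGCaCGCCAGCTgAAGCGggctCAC
Irf2bp2 matched Irf2bpl at 130 of these 150 bases (86.7%) and Irf2bp1 at 118 (78.7%). A second shared stretch of 150 bases near the stop codon, where the RING-type finger lies, had 100 bases in common to all 3 and pairwise identities of 76.0 to 76.7%. The longest run of identical bases between any pair in these stretches was 30, shorter than the single-end reads of 50 bp.

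Irf2bp2 was the member with the clear difference. Its level in control had a lowest, median and highest value of 27.0, 28.3 and 30.0 CPM (counts scaled to 1000000 per library, with TMM factors for composition). Hypoxia libraries 1 to 5 stood at 49.9, 47.2, 51.9, 50.5 and 49.0 CPM. All 5 hypoxia libraries lay above every control library, with a gap between the groups wider than the range of either. The means were 28.4 ± 0.978 and 49.7 ± 1.73 CPM (SD, n = 6 and 5), 1.75-fold higher (log2 fold change 0.81, standard error SE 0.04). Of all genes tested, 0.690% had a higher log2 fold change, which placed Irf2bp2 at rank 113 of 16235. Its raw counts ran from 502 to 1551 per library. Irf2bp2 also had little spread: the coefficient of variation was 3.44% in control and 3.48% in hypoxia, where genes of similar level (0.8 to 1.25 times its mean CPM) had medians of 5.67% and 5.36%. In the authors' deposited table of genes higher in hypoxia it is listed with a log2 fold change of 0.81.

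Irf2bp1, the corepressor that has been described as a ubiquitin ligase for the AP-1 repressor JDP2, overlapped between the groups. Its lowest, median and highest control levels were 17.2, 22.6 and 24.1 CPM, and hypoxia libraries 1 to 5 stood at 23.9, 21.3, 21.5, 22.3 and 23.2 CPM. Every hypoxia value lay inside the control range. The log2 fold change was 0.04 (SE 0.07), with a 95% interval of -0.11 to 0.18.

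Irf2bpl had the highest CPM of the family in control and the widest spread. Its lowest, median and highest control levels were 31.2, 42.5 and 48.8 CPM, and hypoxia libraries 1 to 5 stood at 37.4, 38.7, 37.0, 38.3 and 44.1 CPM. The hypoxia values again lay inside the control range, with hypoxia 5 above the other 4. The means were 40.8 ± 6.79 and 39.1 ± 2.87 CPM, and the log2 fold change was -0.07 (SE 0.09), with a 95% interval of -0.25 to 0.12. The control coefficient of variation of 16.6% compares with a median of 5.54% for genes of similar level.

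**Figure D1:**
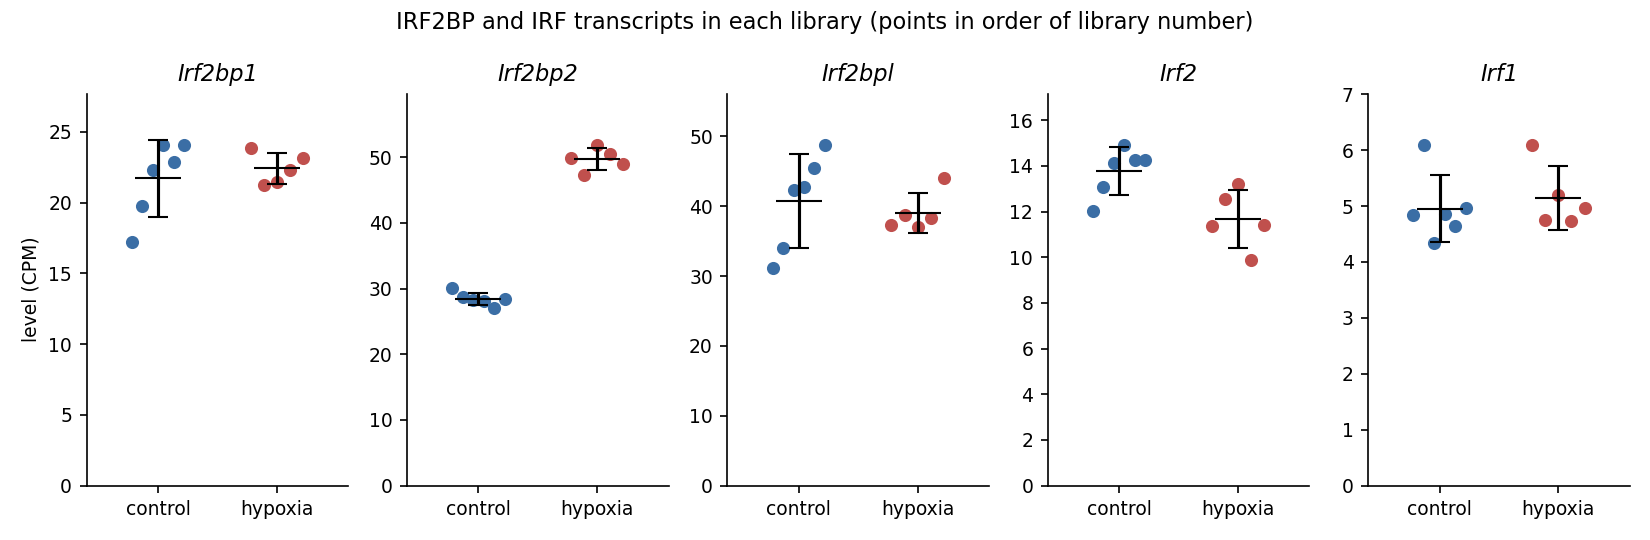
Level in CPM (vertical axes, each from 0) of the 5 members in the 6 control and 5 hypoxia libraries; points are libraries and bars the mean and SD. Irf2bp2 is the panel in which the groups do not overlap, with controls from 27.0 to 30.0 and hypoxia libraries from 47.2 to 51.9.

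Irf2, the repressor that gave the family its name, was lower. Its lowest, median and highest control levels were 12.02, 14.2 and 14.9 CPM, and hypoxia libraries 1 to 5 stood at 11.4, 12.5, 13.2, 9.87 and 11.4 CPM. All 5 hypoxia libraries lay below the control median and 3 of them below every control library, so the groups overlapped in part. The means were 13.8 ± 1.05 and 11.7 ± 1.28 CPM (log2 fold change -0.24, SE 0.08), with a 95% interval of -0.39 to -0.09. The authors' deposited table of genes lower in hypoxia lists it with a log2 fold change of -0.21.

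Irf1, the activator of the pair, had the lowest level of the 5, with 81 to 165 counts per library. Its lowest, median and highest control levels were 4.34, 4.85 and 6.08 CPM, and hypoxia libraries 1 to 5 stood at 6.10, 4.74, 5.20, 4.73 and 4.96 CPM. The highest values were 6.08 CPM in control 2 and 6.10 CPM in hypoxia 1, and the groups overlapped. The log2 fold change was 0.05 (SE 0.10), with a 95% interval of -0.14 to 0.25. It was -0.01 without hypoxia 1 and 0.12 without control 2, so its sign rested on 1 library.

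By the threshold used for all genes, an adjusted p under 0.05 in edgeR, 1 of the 5 members was above it in the higher direction and 1 in the lower, against 22.9% of all genes tested in either direction. The groups did not overlap for 1 of 5 members, which was higher, against 14.0% of all genes in either direction, 6.72% higher and 7.26% lower. Nothing is read from these counts, since this comparison was in view when the members were chosen. The lower one, Irf2, missed the threshold with the replicate number as a block and without control 3, 4, 5 or 6 or hypoxia 1, 4 or 5, where its log2 fold change ran from -0.24 to -0.19.

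**Figure D2:**
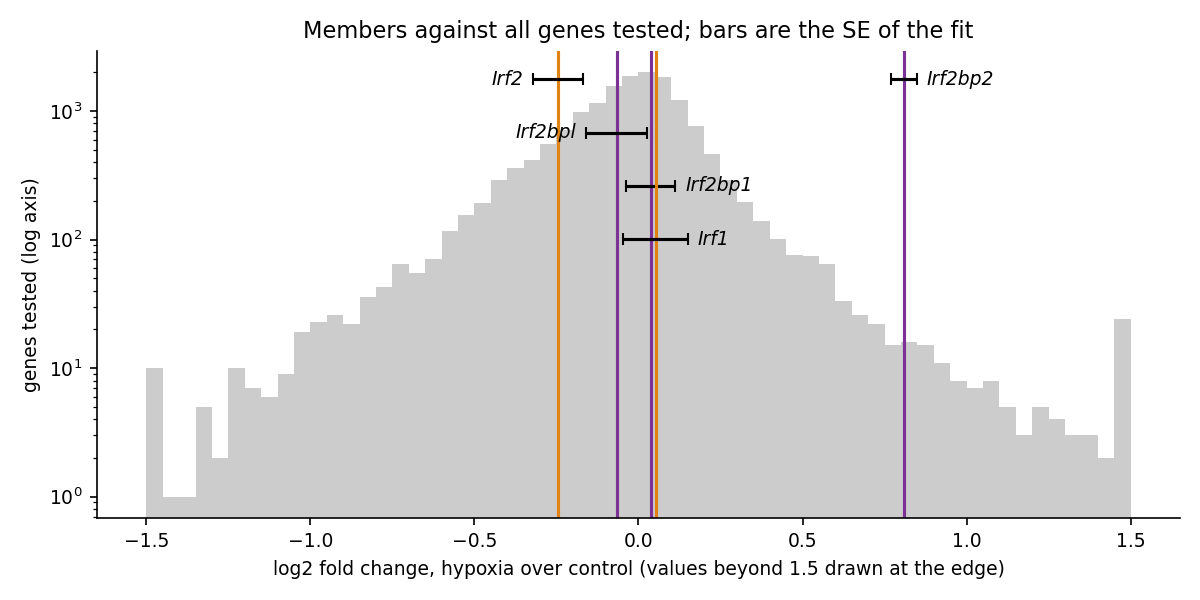
Histogram of the log2 fold change of hypoxia over control for all genes tested (horizontal axis; number of genes on a log axis), with values beyond 1.5 drawn at the edge and vertical lines with SE bars at the members (purple for IRF2BP genes, orange for IRF genes). Irf2bp2 lies at 0.81 in the upper tail and the other 4 members between -0.24 and 0.05, within the bulk of the genes.

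To compare levels between genes, CPM was divided by the exon length of each gene in kilobases. In control the order per kilobase of exon was Irf2bpl at 9.95 ± 1.66, Irf2bp1 at 7.94 ± 0.994 and Irf2bp2 at 5.59 ± 0.192, then Irf2 at 1.86 ± 0.142 and Irf1 at 1.25 ± 0.150. The ranges of Irf2bpl and Irf2bp1 overlapped (7.61 to 11.9 and 6.30 to 8.81), whereas Irf2bp2 (5.31 to 5.91) lay below both. In hypoxia Irf2bp2 (9.78 ± 0.340) and Irf2bpl (9.54 ± 0.700) had overlapping ranges and Irf2bp1 stood at 8.20 ± 0.405. The summed exon length of the many Irf2 and Irf1 transcripts lowers their values. Over the length of the main coding transcript Irf2 was at 5.52 ± 0.420 and Irf1 at 2.32 ± 0.278 in control, which would put Irf2 beside Irf2bp2.

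The makeup of the family differed between the groups. Irf2bp2 made up 21.2 to 29.8% of the per-length sum of the 3 IRF2BP transcripts in control and 33.4 to 37.7% in hypoxia. The share of Irf2bpl was 38.4 to 45.3% in control and 33.0 to 37.2% in hypoxia. The ratio of Irf2bp2 to Irf2bpl was 0.579 ± 0.123 in control and 1.03 ± 0.0916 in hypoxia, and that of Irf2bp2 to Irf2 was 3.02 ± 0.341 and 6.26 ± 0.761 over summed exon length. Over main coding transcripts the latter ratio was 1.02 ± 0.115 and 2.11 ± 0.257. The summed level was 19.8 to 26.3 CPM per kilobase in control and 26.5 to 28.9 in hypoxia, with every hypoxia library above the control range by a narrow margin. The lowest sums were in control 1 and control 2 (19.8 and 21.2). Sums, shares and ratios were taken without the GC correction described below. These ratios rest on the same libraries and the same comparison as the levels above and are a description.

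**Figure D3:**
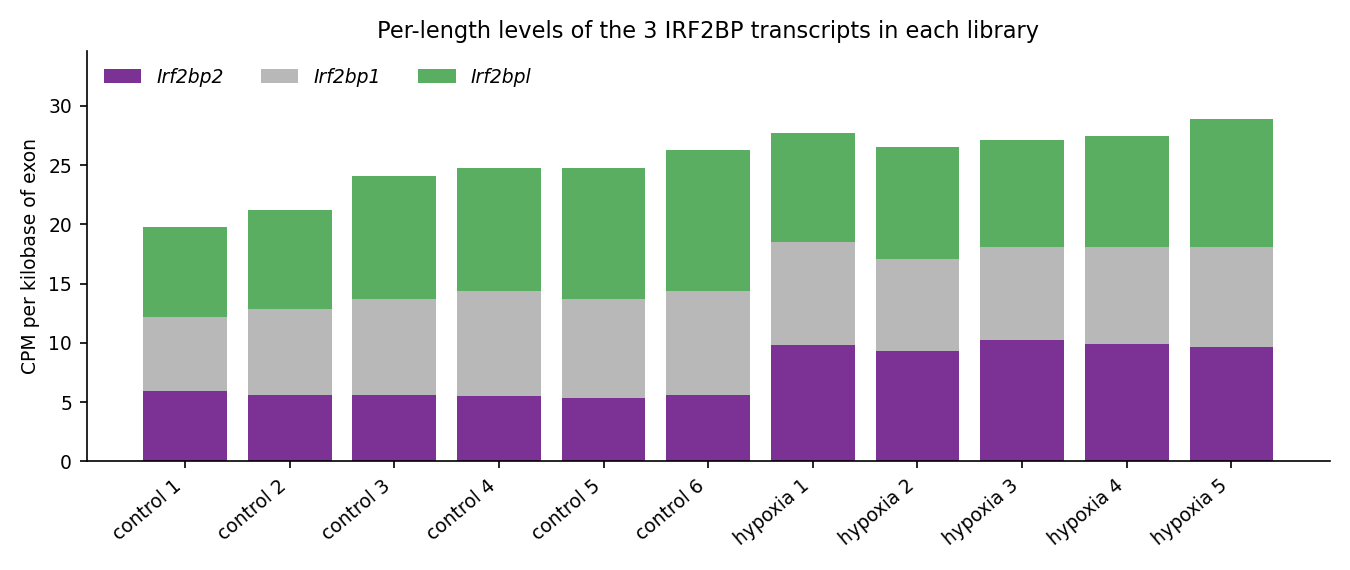
Stacked bars of CPM per kilobase of exon (vertical axis, from 0) for Irf2bp2, Irf2bp1 and Irf2bpl in each of the 11 libraries. The Irf2bp2 segment is 5.31 to 5.91 in control and 9.30 to 10.2 in hypoxia, and the sum is lowest in control 1 at 19.8.

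The low values of Irf2bp1 and Irf2bpl came from the same control libraries. Control 1 and control 2 had the lowest levels of both genes, at 17.2 and 19.8 CPM for Irf2bp1 and 31.2 and 34.03 CPM for Irf2bpl. Both transcripts are rich in G and C: 63.6% for Irf2bp1, which 0.616% of genes exceeded, and 59.96% for Irf2bpl, which 4.08% exceeded, against a median of 49.3%. Irf2bp2 has a coding sequence of 66.8% GC, but a 3′ untranslated region of 2817 bases with 58.7% A and T, and its transcript as a whole is at 54.6%. Irf2 and Irf1 are at 46.4 and 52.8%. Irf2, below the median in GC, was also lowest among controls in control 1 and control 2, at 12.02 and 13.1 CPM. The other controls had 14.1 to 14.9 CPM of Irf2. As a measure of each library, the median log2 deviation of the 10% of genes richest in GC (57.6% or more) was set against that of the 10% poorest (40.9% or less), over genes with a mean log2 CPM above 1. It was -0.39 in control 1 and -0.16 in control 2, between 0.03 and 0.20 in the other controls, and between -0.14 and 0.21 in hypoxia. Control 1 and control 2 were thus lowest among controls in the measure as well as in Irf2bp1, Irf2bpl and Irf2.

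A correction for GC in each library, added after these values were seen, narrowed the control coefficient of variation of Irf2bp1 from 12.5 to 5.48% and that of Irf2bpl from 16.6 to 7.09%. It widened that of Irf2bp2 from 3.44 to 7.98%. The log2 fold changes after the correction were 0.81 for Irf2bp2 (SE 0.05), 0.11 for Irf2bp1 (SE 0.05), -0.01 for Irf2bpl (SE 0.05), -0.25 for Irf2 (SE 0.08) and 0.04 for Irf1 (SE 0.10). The value of Irf2bp1 without the correction was 0.04 (SE 0.07). The difference is smaller than the spread between libraries before the correction, but the correction itself narrowed that spread. After the correction the groups of Irf2bp1 no longer overlapped, by a narrow margin, at 19.3 to 22.38 CPM against 22.40 to 24.4 CPM. The share of all genes without overlap after the correction is not given here, so nothing is read from this.

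**Figure D4:**
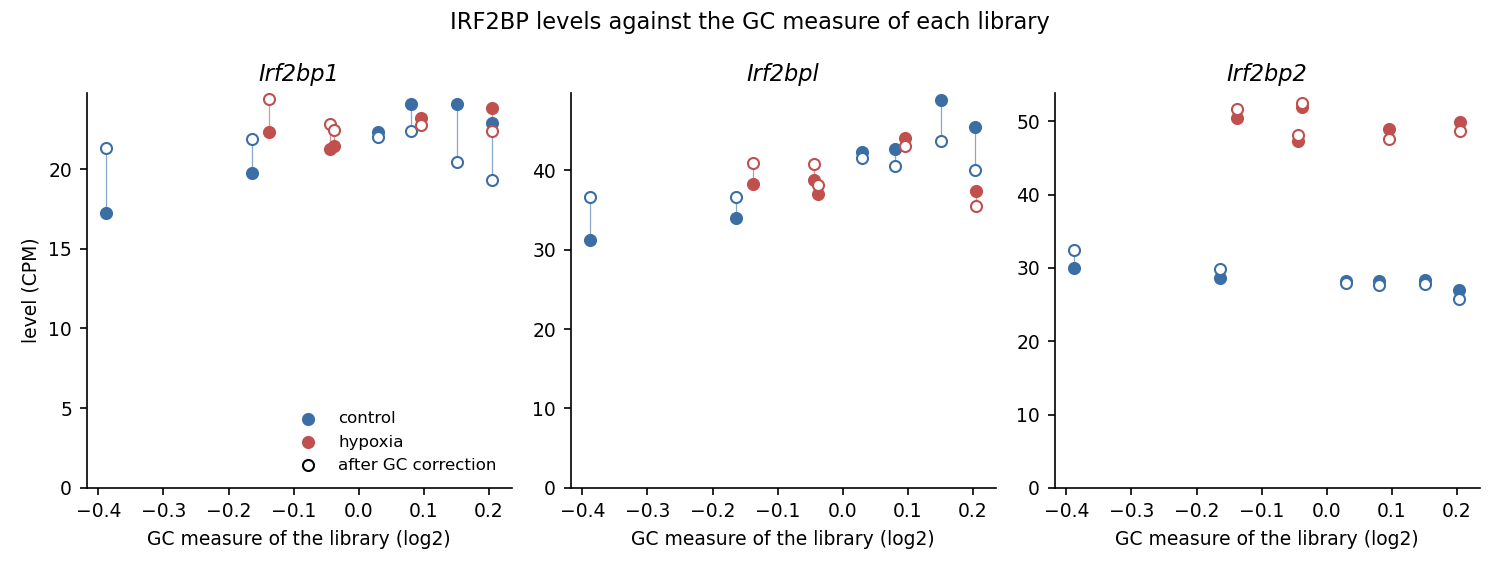
Level in CPM (vertical axes, from 0) of Irf2bp1, Irf2bpl and Irf2bp2 against the GC measure of each library (horizontal axis, log2), before (filled) and after (open) the GC correction. Before the correction control 1, the library at -0.39, is lowest for Irf2bp1 and Irf2bpl, and Irf2bp2 has no overlap between the groups before or after the correction. Irf2bp1 overlaps before it and just fails to overlap after it.

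The sequence before the start site was read from RefSeq (GRCm38.p6), where all 5 members matched and Irf1 has 2 start sites. Windows of 250 bases before the start were searched on both strands for 11 motifs. These were ACGTG (a form of the HIF-binding core), CACGTG (an E-box, which contains the former), TGACGTCA (the cyclic AMP response element) and TGACG (contained in it). They also included TGANTCA (AP-1), TGATGNAA (the C/EBP-ATF response element), the interferon-stimulated response element and TTCNNNGAA (the gamma-activated site). The last were the NF-kappa-B site, GGAATG (TEAD) and TATAAA. The window of Irf2bp2, the member with the large difference, is shown first. It held none of the 11 motifs, where ACGTG occurs in 16.6%, TGACG in 17.8% and TGATGNAA in 3.45% of the 32851 windows of that length. GCGTG, the other form of the HIF-binding core, was not searched and does occur in the Irf2bp2 window on both strands. How many windows hold GCGTG was not counted, so the search does not show that a HIF-binding core is absent. The same window held 32 CG dinucleotides, a number that 4.58% of windows reach. Irf2bpl has a full TGACGTCA at position -30 from its start (1.55% of windows hold one). Capitals in the sequences mark matches to the letters searched, so other forms of a site stay in lower case. Irf2 has GAAAATGAAA at position -241 (an interferon-stimulated response element, which 2.98% of windows hold), then TTCCGAGAA at -224 and TGATGAAA at -214, none overlapping another. Irf1 has TTCCCCGAA at -90 from the first of its start sites (TTCNNNGAA is in 7.02% of windows).
Irf2bp2 (chr8:126593987-126594236, minus strand): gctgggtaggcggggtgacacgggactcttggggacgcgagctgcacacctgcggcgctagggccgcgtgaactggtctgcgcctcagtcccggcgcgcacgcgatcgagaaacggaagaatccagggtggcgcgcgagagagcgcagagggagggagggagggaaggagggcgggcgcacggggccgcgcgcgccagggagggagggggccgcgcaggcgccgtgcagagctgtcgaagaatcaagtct
Irf2bpl (chr12:86884815-86885064, minus strand): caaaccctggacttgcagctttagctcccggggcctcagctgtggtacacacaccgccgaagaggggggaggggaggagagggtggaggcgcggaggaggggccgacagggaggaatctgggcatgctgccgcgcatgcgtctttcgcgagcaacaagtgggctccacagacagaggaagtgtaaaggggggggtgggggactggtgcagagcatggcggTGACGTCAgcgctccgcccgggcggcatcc
Irf1 (chr11:53769764-53770013, plus strand): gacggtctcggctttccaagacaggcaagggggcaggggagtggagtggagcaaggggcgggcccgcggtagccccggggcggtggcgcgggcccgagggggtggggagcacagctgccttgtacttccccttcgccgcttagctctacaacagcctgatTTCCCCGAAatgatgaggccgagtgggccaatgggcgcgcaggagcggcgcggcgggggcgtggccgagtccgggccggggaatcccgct
Irf2 (chr8:46739495-46739594, plus strand, the bases 250 to 151 before the start): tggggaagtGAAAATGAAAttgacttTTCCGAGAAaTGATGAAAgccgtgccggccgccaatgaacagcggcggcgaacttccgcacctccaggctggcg
A match is a description of letters, and no match says only that these letters are not in this window. The window of Irf2bp1 held TTCCCAGAA, also a gamma-activated site, at -59, and that of the second Irf1 start site held none of the motifs.

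The genes around the members were read for shared changes and for overlapping transcripts, since the library kit does not mark strand. Irf2bp2 is overlapped by the antisense gene Gm26759, which had at most 1 count in any library, and lies 113231 bp from the nearest coding gene on its left, Tarbp1 (log2 fold change 0.03), and 336681 bp from Tomm20 on its right (0.04). Neither neighbour was called. The nearest coding gene to the right of Irf2bpl, Cipc, which encodes an inhibitor of the CLOCK protein, was higher, with 65.4 ± 3.29 CPM for control against 73.9 ± 1.93 CPM for hypoxia (log2 fold change 0.18, edgeR adjusted p = 0.00451). Mypop, the nearest coding gene to the left of Irf2bp1, was not called (-0.07). The 3 genes that overlap Irf2 and the 1 that overlaps Irf1 had at most 6 counts in any library.

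Likeness of pattern was measured as the Pearson correlation of log2 CPM over the 11 libraries among 10682 named genes at a mean of 5 CPM or more. It is a description with no test, and the libraries share their groups and their GC measure. The 4 genes most like Irf2bp2 were Eif3c (r = 0.995), a translation initiation subunit, Errfi1 (0.993), an inhibitor of the EGF receptor, Zfp623 (0.991) and Atf4 (0.988), the stress-response transcription factor, all called higher, with log2 fold changes of 0.19, 0.59, 0.59 and 1.10. Those most like Irf2bp1 were Zbtb45 (0.972), Rprml (0.953), Sart1 (0.951) and U2af2 (0.950), and those most like Irf2bpl were Zmiz1 (0.965), Zc3h7b (0.956), Zfp341 (0.955) and Nosip (0.954). None of these 8 was called, and their transcripts hold 53.9 to 64.1% GC. Those most like Irf2 were Fgfr3 (0.949), Dnajc16 (0.938), Clk2 (0.915) and Plxnb1 (0.904), with 52.1 to 57.6% GC. Irf1 had weaker matches, with Smyd4 (0.844), the ribosomal RNA gene model CT010467.1 (0.840), Mir6236 (0.827) and Plekhh2 (0.821).

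Among the other interferon regulatory factors, Irf3 and Irf9 were lower. Of 7, 4 passed the filter, and 2 were lower and none higher. The median of these 4 was -0.34 on the log2 scale, beside -0.02 over all genes tested. It lies between Irf9 and the low-count Irf5 (-0.38, not called). Lower calls made up 12.8% of all genes tested and higher calls 10.1%. Irf3, the factor activated by viral nucleic acid sensing, fell from a control range of 6.18 to 7.71 CPM to 4.20 to 5.78 CPM in hypoxia (log2 fold change -0.46, SE 0.09, edgeR adjusted p = 0.00127). Irf9, the DNA-binding subunit of the interferon-activated STAT complex, fell from 11.6 ± 0.637 to 9.34 ± 0.406 CPM (-0.31, SE 0.06, edgeR adjusted p = 0.00190). For Irf3 and Irf9 the ranges of the groups did not overlap. Irf5 and the myeloid factor Irf8 were under 1 CPM and not called.

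Interferon receptors and JAK-STAT genes were mostly not called. Of 13 tested out of 14, 1 was higher and 1 lower, against 10.1% and 12.8% of all genes tested. The median was 0.03. The kinase Tyk2, which signals from the type I interferon receptor, was lower (14.0 ± 1.61 and 11.6 ± 1.02 CPM, edgeR adjusted p = 0.0218), and Stat3 was higher by 0.11 on the log2 scale (edgeR adjusted p = 0.0492). The Tyk2 call was lost without control 5, hypoxia 2 or hypoxia 4 and the Stat3 call without control 2, 3, 5 or 6 or hypoxia 1, 2, 3 or 5 (edgeR adjusted p up to 0.0622 and 0.108). With the replicate number as a block both were lost (edgeR adjusted p = 0.0923 and 0.190).

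Genes that interferon and IRF factors are known to induce were mostly not called. Of 30 listed, 22 passed the filter, and 1 was higher and 1 lower, against 10.1% and 12.8% of all genes tested. The median was -0.13. Tlr3, a receptor for double-stranded RNA, fell from 4.20 ± 0.500 to 3.14 ± 0.437 CPM (edgeR adjusted p = 0.0129). Cd274, the immune checkpoint ligand PD-L1, was higher at 2.33 ± 0.157 and 2.93 ± 0.287 CPM (edgeR adjusted p = 0.0255), a call lost without control 3 or 4 or hypoxia 2, 3 or 4 (edgeR adjusted p up to 0.0671). Many of these genes are close to the limit of detection in these cultures: 14 of 30 had a mean under 1 CPM, among them Isg15, Ifit1 and Mx1.

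Genes listed as reported binding partners of the IRF2BP proteins were called in both directions. Of 12, 11 passed the filter, and 1 was higher and 2 lower, against 10.1% and 12.8% of all genes tested. The median was 0.03. Jdp2, the AP-1 repressor, rose from 7.15 ± 0.981 to 10.001 ± 0.577 CPM (log2 fold change 0.48, SE 0.09, edgeR adjusted p = 0.000999). Cpsf6, a cleavage and polyadenylation factor, fell from 176 ± 8.40 to 134 ± 14.6 CPM (-0.40, SE 0.06, edgeR adjusted p = 0.000191). Klf2, an endothelial and myeloid Krüppel-like factor, was under 1 CPM and lower (-0.89, edgeR adjusted p = 0.0318). That call was lost without control 4 or 5 or hypoxia 1, 2, 3 or 4 (edgeR adjusted p up to 0.0828). Whether Klf2 belongs here or among genes that IRF2BP proteins regulate was not checked, and the counts of both lists depend on it. Vgll4 had a log2 fold change of 0.16 and Atf2 of 0.09, and neither was called here. With the GC correction both passed the threshold, which made 3 higher calls on the list. Vgll4 also passed with the replicate block and without control 5, and Atf2 without control 1. Tead1, Nfatc1, Nfatc2 and Ncor1 were not called.

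Among 6 genes reported to respond to IRF2BP proteins, 5 passed the filter, 3 were higher and none lower, with a median of 0.25. Over all genes tested, 10.1% were called higher and 12.8% lower. The direction in which each gene was reported to respond was not compared with these calls. Vegfa, the vascular growth factor, rose from 141 ± 29.3 to 286 ± 16.2 CPM (log2 fold change 1.02, SE 0.11, edgeR adjusted p = 5.94e-06). It is also a HIF target, as Cdkn1a (0.41, edgeR adjusted p = 0.000135) and Mdm2 (0.25, edgeR adjusted p = 0.00379) are p53 targets. Whether IRF2BP2 had a part in any of these differences was not tested. Fastkd2, a mitochondrial RNA-binding protein, was at 18.8 ± 1.94 and 18.7 ± 0.935 CPM, and Gnrh1 was under 1 CPM.

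General corepressors, listed to set the family beside other proteins of its kind, were called in both directions. Of 20 tested, 3 were higher and 4 lower, against 10.1% and 12.8% of all genes tested. The median log2 fold change was 0.01. Their log2 fold changes ran from -0.38 to 0.31, where Irf2bp2 had 0.81. The members were selected on this same comparison, so nothing is read from the place of Irf2bp2 beside this list. Bcorl1 fell from 46.9 ± 4.28 to 36.8 ± 4.02 CPM and the Groucho protein gene Tle2 from 12.7 ± 1.12 to 9.83 ± 1.57 CPM (edgeR adjusted p = 0.00220 and 0.00690). Tle3 rose from 31.3 ± 4.33 to 38.9 ± 2.10 CPM and Bcor, a BCL6 corepressor, from 25.8 ± 3.07 to 31.5 ± 1.72 CPM (edgeR adjusted p = 0.00818 and 0.00954). The other calls, named after their values were seen, were Rcor2 (0.31) and, lower, Rcor1 (-0.11) and Tle1 (-0.12). The calls of Rcor1 and Tle1 were each lost on leaving out any of 10 libraries, all except control 1 for Rcor1 and all except control 2 for Tle1 (edgeR adjusted p up to 0.122 and 0.145). Paralogues were thus called in opposite directions, as Tle3 and Tle2 and as Bcor and Bcorl1.

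IRF2BPL has been described as an antagonist of Wnt signalling, so feedback and core genes of that pathway were counted. Of 14, 13 passed the filter, and 1 was higher and 3 lower, against 10.1% and 12.8% of all genes tested. The median was -0.04. Cyclin D1 (Ccnd1) fell from 41.8 ± 5.37 to 32.2 ± 3.24 CPM and Znrf3, a ligase that removes Wnt receptors, from 20.7 ± 0.641 to 18.1 ± 0.609 CPM (edgeR adjusted p = 0.00408 and 0.00611). Rnf43, a ligase of the same kind, rose from 3.65 ± 0.224 to 4.68 ± 0.459 CPM (edgeR adjusted p = 0.00832). Lef1 was lower (-0.44, edgeR adjusted p = 0.0448), a call lost on leaving out any of 9 libraries, all except control 6 and hypoxia 5 (edgeR adjusted p up to 0.0987). Axin2, a general readout of the pathway, was at 16.7 ± 1.02 and 16.2 ± 0.874 CPM and was not called.

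**Figure D5:**
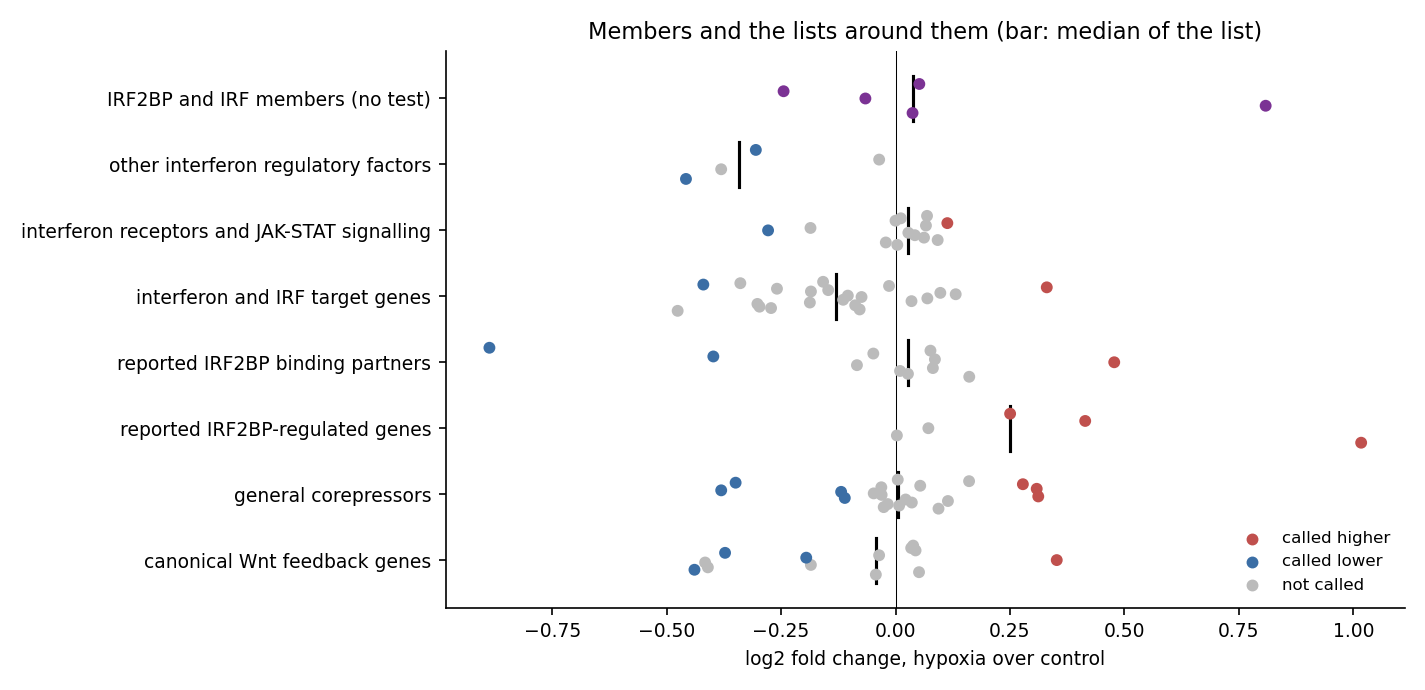
Log2 fold change of hypoxia over control (horizontal axis) for the 5 members and for each tested gene of the 7 lists around them; members are purple, red and blue mark genes called higher and lower, grey those not called, and black bars the median of each list. The highest of the general corepressors is at 0.31 and Irf2bp2 at 0.81, where the members were selected on this same comparison. The list of other interferon regulatory factors has its median at -0.34 over 4 tested genes, of which Irf5 and Irf8 are under 1 CPM.

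The cultures carried the markers of the labelled cell type together with those of glia. In these bulk samples fewer cells of a type and less RNA per cell cannot be told apart. Over all genes tested, 10.1% were called higher and 12.8% lower. None of 7 general neuronal markers was called (sum 5987 to 6564 CPM in control and 5993 to 6521 in hypoxia), and the 7 astrocyte markers summed to 3042 to 3333 and 3044 to 3328 CPM, with Aqp4 lower. The Aqp4 call was lost without control 1, 2, 3 or 4 or hypoxia 1, 2 or 4 (edgeR adjusted p up to 0.0774). Of 7 excitatory markers, Tbr1 and Neurod6 were higher (log2 fold change 0.18 and 0.13) and none was lower. The Neurod6 call was lost with the replicate block and without hypoxia 4 (edgeR adjusted p = 0.0695 and 0.0538). Dlx1 was lower (-0.28, edgeR adjusted p = 0.00447), the only call among 7 interneuron markers, which summed to 342 to 387 CPM in control and 340 to 375 in hypoxia. The mural marker Pdgfrb was higher (0.56, edgeR adjusted p = 0.000394), the only call among 6 endothelial and mural markers tested. That list had a median of 0.05, and the mural marker Rgs5 was at -0.16. The 10 microglial markers, a cell type that expresses many IRF genes, summed to 18.4 to 20.6 and 18.4 to 21.6 CPM with none called, and P2ry12, Itgam and Trem2 did not pass the filter. Oligodendrocyte lineage markers summed to 109 to 155 CPM against 92.7 to 123 CPM, with Olig1 and Olig2 lower. The Olig2 call was lost in DESeq2, with RLE factors, robust dispersion or the GC correction, and without control 1, 2, 4 or 5 or hypoxia 1, 2, 4 or 5 (adjusted p up to 0.113, edgeR). The part of these markers in the lower values of Irf2, Irf3 and Irf9 was not tested.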

How the data were processed

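RNA was measured by sequencing of polyadenylated RNA in 6 control and 5 hypoxia libraries. The authors deposited raw read counts for 48709 Ensembl gene IDs per library, with STAR 2.5.2b, featureCounts (Subread 1.5.1) and DESeq2 on mm10, per the submitters' processing notes. The annotation release, strand setting and treatment of multiply mapped reads were not given in the labels or headers used here. The authors' deposited tables of 2099 higher and 1693 lower genes hold log2 fold changes, adjusted p-values and a normalized signal, which is the count over 1 size factor per library. Only the log2 fold changes are quoted.

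Genes were filtered with filterByExpr, scaled with TMM and compared with the edgeR 4.0.16 quasi-likelihood F test (R 4.3.3), 2-sided, with Benjamini-Hochberg adjustment over 16235 genes and a threshold of 0.05. The SE is the log2 fold change over the square root of F. The 95% interval is 1.96 SE to either side. The fit was checked on simulated counts. Alternatives were DESeq2 1.42.0, 3 other scalings, 2 other filters, robust dispersion, a replicate block, each library left out in turn and, added after seeing the data, a GC correction per library. Symbols, lengths and coordinates came from GENCODE M21 and promoters from RefSeq (GRCm38.p6), both on the build of the files. The members and lists were chosen with earlier results of these data known. The rule named the members, up to 4 called genes of each list, the 4 genes most like each member and neighbouring genes. Other list genes and markers in the text were named after their values were seen. Some genes are not reported here.

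Equal replicate numbers gave no consistent sign of pairing, and the labels do not settle it. Depth of 1.66e+07 counts or more leaves genes under 1 CPM with few reads.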

Additional observations from a re-analysis of the deposited data

Results flagged for a closer look

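Of the 10 groups of values over the members, 2 held a library that stood apart by Dixon's criterion, which chance meets in about 1 of 20 groups. Irf2bpl was at 44.1 CPM in hypoxia 5, with the other hypoxia libraries at 37.0 to 38.7 CPM. Without hypoxia 5 its log2 fold change was -0.11 in place of -0.07. Irf1 was at 6.08 CPM in control 2, with the other controls at 4.34 to 4.96 CPM. Control 2 also stood apart in the ribosomal RNA gene model CT010467.1, at 5579 CPM against 523 to 745 CPM in the other controls, and in the mitochondrial ribosomal RNA mt-Rnr2, at 4388 against 1880 to 2728 CPM. Their part in the Irf1 value was not tested.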

How the results depend on the processing

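The number of genes called was 1644 higher and 2078 lower. It ran from 1385 to 2081 and from 1500 to 2042 when single libraries were left out, and from 1300 to 2346 and from 1637 to 2364 over the other settings. The log2 fold change of Irf2bp2 ran from 0.79 to 0.84 over all 20 settings, that of Irf2 from -0.29 to -0.19, that of Irf2bp1 from -0.00 to 0.11, that of Irf2bpl from -0.11 to 0.00 and that of Irf1 from -0.01 to 0.12. Each moved by less than the SD between libraries of a group. Leaving out a single library or rescaling the same counts can hardly move a mean by that much, so no conclusion is drawn from this. Replicate numbers gave no consistent sign of pairing: deviations of same-numbered libraries correlated at -0.10, 0.14, -0.06, -0.06 and 0.31. Differently numbered libraries ran from -0.27 to 0.19, below the 0.31 of number 5. The labels do not say whether the numbers pair the libraries, and these few values cannot exclude it. With the replicate block, without control 6, 0 JAK-STAT genes were higher and 0 lower, 2 partners were higher and 2 corepressors lower.

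List counts are small and some moved. JAK-STAT genes called higher were 0 with library size only, upper quartile factors or no filter. Interferon targets called higher were 2 in DESeq2 and 0 with no filter, and 2 were lower with library size only. Partners called higher were 2 in DESeq2 and 3 with the GC correction, and 1 was lower in DESeq2 and with either other filter. Corepressors called higher were 5 with the GC correction, and 2 were lower in DESeq2, with RLE factors and with no filter. Leaving out single libraries gave 0 to 1 JAK-STAT genes higher and 0 to 1 lower, 0 to 1 interferon targets higher and 1 to 2 lower, 1 to 3 partners higher and 1 to 2 lower, and 2 to 3 corepressors lower. Of 88 list genes over these settings, none reversed a called direction. Irf1, with 81 to 165 counts per library, had the fewest reads of the members.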
